A study of Mus musculus with 12 samples.

Results

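The genes that set the pace of glycolysis were examined in gastrocnemius muscle, the large calf muscle, of 12 mice given gut bacteria from sedentary or trained donors. They are the hexokinases Hk1 and Hk2, the muscle, liver and platelet phosphofructokinases Pfkm, Pfkl and Pfkp, the bifunctional enzymes Pfkfb1, Pfkfb2, Pfkfb3 and Pfkfb4, and the muscle fructose bisphosphatase Fbp2. Members were the transcript clusters of the array (probe sets along a transcript, summarized as 1 value) annotated with 1 of these 10 symbols and no other. This gave 10 transcript clusters of 9 genes out of 28944 transcript clusters, since Hk1 had 2 and Pfkfb1 was not analysed here. Each of the 12 arrays was made from 1 mouse, 6 recipients of feces from sedentary mice (RS) and 6 of feces from trained mice (RT). All recipients were male germ-free Tsl;ICR[GF] mice, 11 weeks old by the labels, gavaged with donor feces, fed a high-fat diet and collected after 1 week. RT received feces of ICR mice trained on a treadmill and RS feces of ICR mice that did not train. By the study's methods, the recipients shared housing and the inoculum did not differ between them within a group, so that donor training cannot be told apart from the fecal sample or the cage, and the p-values measure the spread between mice only.

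Glucose that enters a muscle fiber is trapped by hexokinase as glucose 6-phosphate. Hexokinase II is the main form of muscle and responds to insulin and contraction, whereas hexokinase I is found in most cell types. Phosphofructokinase then makes the committed step of glycolysis, and fructose bisphosphatase runs the opposite reaction. The PFKFB enzymes make and break fructose 2,6-bisphosphate, a strong activator of phosphofructokinase and an inhibitor of fructose bisphosphatase. In these data, the RefSeq-annotated of the 2 transcript clusters of Hk1 was higher (1.25-fold) and Pfkfb2 lower (0.713-fold) in RT, and the other 8 transcript clusters did not pass the test. A transcript cluster was called where limma, fitted over all transcript clusters, gave a p under 0.05 that also stayed under 0.1 after Benjamini-Hochberg adjustment. Among all transcript clusters, 11.9% were called higher and 13.0% lower, so that 1 of 10 called in each direction is near the share of the whole array. Of the 10 log2 changes, 5 were above 0 and 5 below 0, with a median of 0.005 against −0.0133 over all transcript clusters.

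The arrays RS-4 and RS-6 stood apart from the others. The standard deviation of log2 signal within an array was 1.97 in RS-4 and 1.99 in RS-6 and lay between 2.06 and 2.15 in the remaining 10. Without these arrays, 5.70% of transcript clusters were called higher and 6.19% lower. With the array standard deviation as a covariate the shares were 2.53% and 3.07%. The label of muscle was checked on 10 fast-twitch fiber markers, whose mean log2 signal was 12.03 to 12.28 in RS and 12.19 to 12.26 in RT. Markers of other cells differed between the groups. For macrophages 7 of 8 markers were called higher in RT, and the mean of the list was 4.66 to 5.29 in RS and 5.52 to 5.99 in RT. For fibroblasts and matrix 7 of 7 were called higher, with means of 7.48 to 8.72 and 8.68 to 9.07, and for endothelial cells 4 of 7, with means of 6.46 to 6.92 and 6.88 to 7.29. Adipocyte markers were called higher in 4 of 8 and lower in 1, slow-twitch fiber markers lower in 1 of 9, Schwann markers in 1 of 4 each way, and erythrocyte markers in 1 of 3 each way, while the 10 fast-twitch fiber and the 7 neutrophil markers were not called. The slow-twitch list varied widely between mice, with means of 7.64 to 9.15 in RS and 6.61 to 8.84 in RT. Its median log2 change was −0.42. In bulk muscle, fewer cells of a type and less RNA per cell cannot be told apart, and the part of these markers in the results that follow was not tested.

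**Figure D1:**
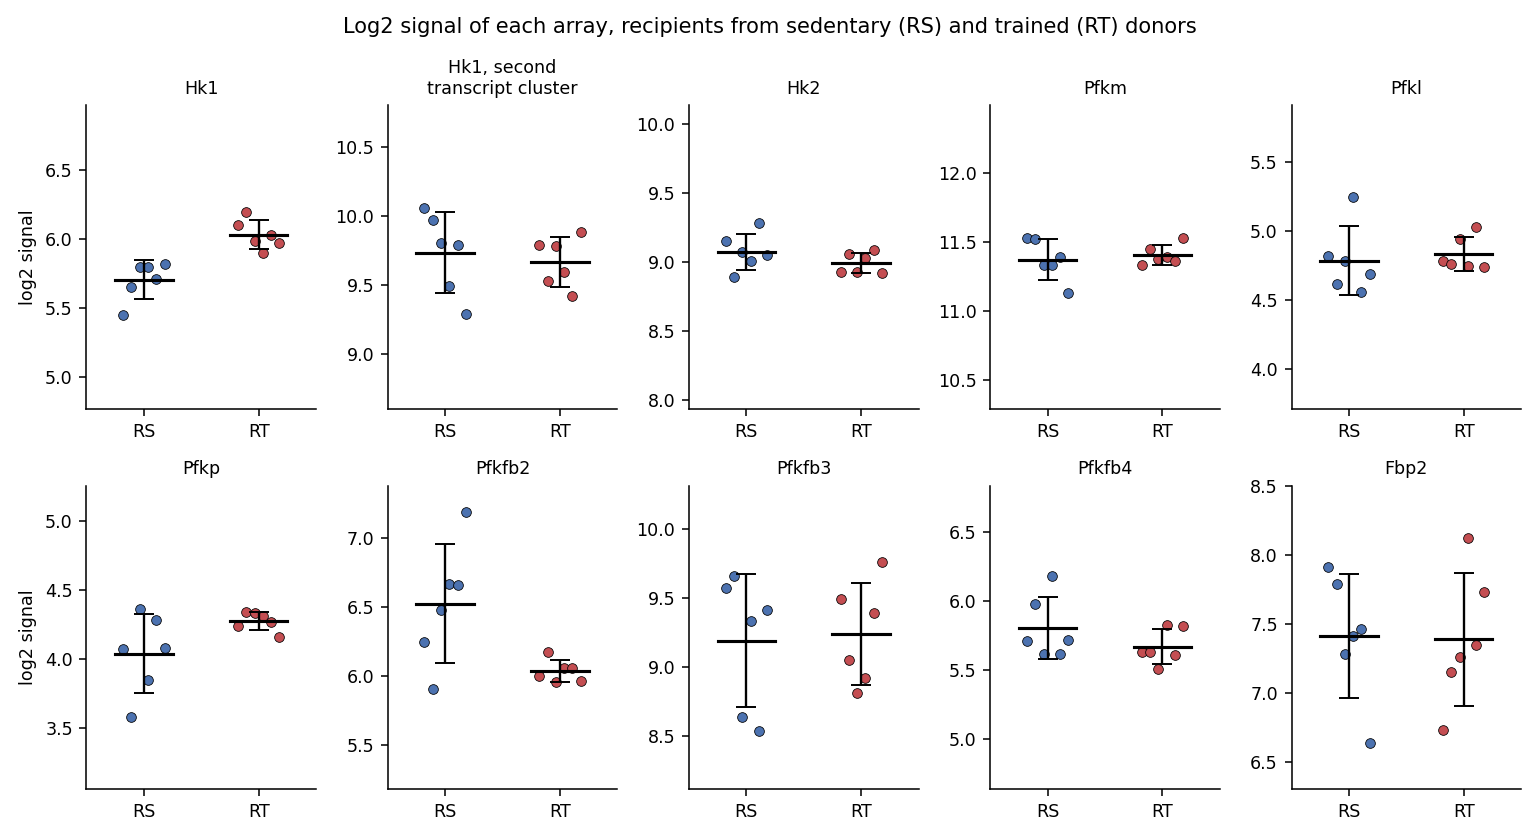
Log2 signal on each array for the 10 transcript clusters, with RS in blue and RT in red; the thick line is the group mean and the bar the SD (n = 6). All panels span the same height, so that the gap between RS and RT for Hk1 and the wide RS group for Pfkfb2 can be compared with the other panels.

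Hexokinases act at the entry to the pathway. The Hk1 transcript cluster that is annotated with RefSeq mRNAs had a lowest, median and highest log2 signal of 5.45, 5.75 and 5.82 in RS and of 5.90, 6.01 and 6.20 in RT. Every RT mouse was above every RS mouse, which held for 2.69% of all transcript clusters. RS had a mean of 5.71 ± 0.14 (SD, n = 6) and RT one of 6.03 ± 0.11 (SD, n = 6), a log2 change of 0.33 with an SE of 0.08 and a 95% interval from 0.15 to 0.50, or 1.25-fold (limma, adjusted p = 0.0188; exact permutation test, two-sided, p = 0.00216, the smallest that this design allows). Among transcript clusters in the same decile of signal, 22.6% were called higher and 8.84% lower. The change was 0.38 without RS-4 and RS-6 and 0.41 with the array standard deviation as a covariate, both called.

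Hk2 had a lowest, median and highest log2 signal of 8.89, 9.06 and 9.28 in RS and of 8.92, 8.98 and 9.09 in RT. The groups overlapped, and the log2 change was −0.08 with a 95% interval from −0.25 to 0.09 (limma, adjusted p = 0.495). Within each array, the log2 signal of Hk2 minus that of Hk1 was 3.21 to 3.70 in RS and 2.83 to 3.13 in RT, so that the groups did not overlap. This within-array difference fell by 0.41 (SE 0.10) in RT (exact permutation test, two-sided, p = 0.00216, adjusted over 5 pairs p = 0.0108). It compares changes between the groups, and does not show which mRNA is more abundant. It rests on the RefSeq-annotated Hk1 transcript cluster: with the brighter Hk1 transcript cluster described next, the difference changed by −0.0133 (SE 0.16; exact permutation test, two-sided, p = 0.946, adjusted over 5 pairs p = 0.946).

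The second transcript cluster annotated as Hk1 behaved differently. Its lowest, median and highest log2 signals were 9.29, 9.79 and 10.06 in RS and 9.42, 9.68 and 9.88 in RT, with a log2 change of −0.07 and a 95% interval from −0.33 to 0.20 (limma, adjusted p = 0.734). It is annotated by a single GenBank record and no RefSeq mRNA, and that record is listed for 18 transcript clusters, this one included. By symbol, 16 transcript clusters are annotated with both Rpl17, a protein of the large ribosomal subunit, and Hk1. After removal of the group means, its signal over the 12 arrays correlated with those 16 transcript clusters at r = 0.838 to 0.977. The RefSeq-annotated Hk1 transcript cluster gave r = −0.811 to −0.636 with the same 16, and the 2 Hk1 transcript clusters gave r = −0.616 with each other. These correlations are a description over 12 arrays that share their normalization, and no r of other bright transcript clusters is set beside them. The lowest RS values of the second Hk1 transcript cluster were 9.49 in RS-4 and 9.29 in RS-6, the arrays with the narrowest spread. The part of that spread in these r values was not tested. Of the 16, 1 was called higher and the others were not called (limma; changes from −0.07 to 0.40). The second transcript cluster was the brighter of the 2, which the rule set beforehand would have taken. If the brighter one stands for Hk1, or the mean of both (log2 change 0.13, limma, adjusted p = 0.244), Hk1 is not called and 0 members are higher.

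**Figure D2:**
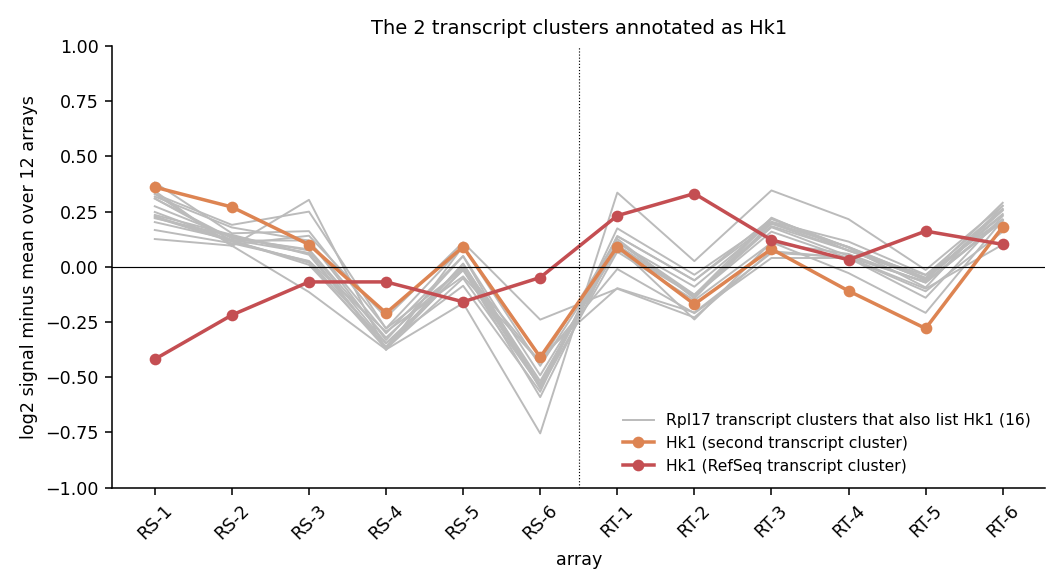
Log2 signal minus its mean over the 12 arrays for the RefSeq-annotated Hk1 transcript cluster (red), the second Hk1 transcript cluster (orange) and the 16 transcript clusters that list both Rpl17 and Hk1 (gray), by array. The orange line follows the gray lines, with its lowest value in RS-6, and the red line does not.

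Hk1 has promoter windows at 2 starts and Pfkfb2 at 3 in the RefSeq tables of the build GRCm38.p6, each of 250 bases before to 50 after the start. The window with the most motif matches is shown for each of these 2 genes, since they are the members called in opposite directions. Capitals mark matches on either strand to the hypoxia response core ACGTG, the E-box CACGTG, which contains that core, the GC box GGGCGG and the TATA box TATAAA. The Hk1 window lies at chr10:62340372-62340671 and the Pfkfb2 window at chr1:130715772-130716071, both on the minus strand.
Hk1: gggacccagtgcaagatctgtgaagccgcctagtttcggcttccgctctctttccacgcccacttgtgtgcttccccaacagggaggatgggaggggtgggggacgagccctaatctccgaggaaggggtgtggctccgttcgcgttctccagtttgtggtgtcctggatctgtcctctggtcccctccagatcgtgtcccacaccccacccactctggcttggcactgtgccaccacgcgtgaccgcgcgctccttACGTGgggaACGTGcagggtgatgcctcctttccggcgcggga
Pfkfb2: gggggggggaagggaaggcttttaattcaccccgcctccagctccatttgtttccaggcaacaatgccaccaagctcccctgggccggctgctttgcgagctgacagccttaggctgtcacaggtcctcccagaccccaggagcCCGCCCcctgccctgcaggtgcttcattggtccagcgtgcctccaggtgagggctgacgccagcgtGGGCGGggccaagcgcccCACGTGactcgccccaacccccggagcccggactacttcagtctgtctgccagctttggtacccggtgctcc
The Hk1 window holds 2 ACGTG matches, both within the 50 bases after the start and neither in an E-box. In the Pfkfb2 window, 1 E-box gives both ACGTG matches, since its letters read the same on each strand, and 2 GC boxes lie upstream of it. Of 20 windows of the 10 genes, 9 held ACGTG, 4 CACGTG, 8 GGGCGG and 1 TATAAA. Among all 32851 windows of the same length, 19.6% held ACGTG, 7.15% CACGTG, 35.7% GGGCGG and 13.6% TATAAA. A match describes letters in a window, and these data do not measure binding.

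Phosphofructokinase is a tetramer whose subunits come from Pfkm, Pfkl and Pfkp. Pfkm, the main subunit of mature muscle fibers, had a lowest, median and highest log2 signal of 11.13, 11.36 and 11.53 in RS and of 11.33, 11.39 and 11.53 in RT. The ranges lay on top of each other, and the log2 change of 0.035 had a 95% interval from −0.14 to 0.21 (limma, adjusted p = 0.795). Pfkl, the liver-type subunit, lay between 4.56 and 5.25 in RS, with a median of 4.74, and between 4.74 and 5.03 in RT, with a median of 4.77. Its log2 change was 0.05, with a 95% interval from −0.18 to 0.27 (limma, adjusted p = 0.792).

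Pfkp, the platelet-type subunit found in many non-muscle cells, was at the border of the test. Its lowest, median and highest log2 signals were 3.58, 4.08 and 4.36 in RS and 4.16, 4.29 and 4.34 in RT. RT mice were close together, 4 of 6 RS mice were below all of them and 1 RS mouse was above all of them. The log2 change was 0.24 with a 95% interval from 0.0008 to 0.48 and did not pass the call (limma, p = 0.0493, adjusted p = 0.152; exact permutation test, two-sided, p = 0.0671). It was called higher without RS-3 (0.30), after further quantile normalization (0.35), after cyclic loess (0.35) and after centering on array medians (0.31). The change was 0.15 without RS-2 (limma, adjusted p = 0.297), the array with the lowest value, 0.20 without RS-4 and RS-6 (limma, adjusted p = 0.343) and 0.17 with the array standard deviation as a covariate (limma, adjusted p = 0.541), none of these called. The within-array difference between Pfkm and Pfkl changed by −0.01 (exact permutation test, p = 0.933, adjusted over 5 pairs p = 0.933), and that between Pfkm and Pfkp by −0.20 (SE 0.16; exact permutation test, p = 0.284, adjusted over 5 pairs p = 0.707). With the deposited values, a difference between the subunits was therefore not shown. After cyclic loess, Pfkm minus Pfkp changed by −0.40 (SE 0.16, exact permutation test, p = 0.0216, adjusted over 5 pairs p = 0.054).

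Fbp2, which opposes phosphofructokinase in muscle, varied widely between mice of the same group. Its log2 signal had a lowest, median and highest value of 6.64, 7.44 and 7.91 in RS and of 6.73, 7.30 and 8.12 in RT. The standard deviation within the groups was 0.47, higher than for 97.2% of the transcript clusters in its decile of signal. The log2 change was −0.025, and its 95% interval from −0.48 to 0.43 leaves room for changes in either direction (limma, adjusted p = 0.948). The log2 difference of Pfkm minus Fbp2 changed by 0.06 (SE 0.22; exact permutation test, p = 0.803, adjusted over 5 pairs p = 0.933).

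The PFKFB genes encode the enzymes that set fructose 2,6-bisphosphate. Pfkfb2, best known as the heart isoform, which insulin signaling activates by phosphorylation, had a lowest, median and highest log2 signal of 5.91, 6.57 and 7.19 in RS and of 5.96, 6.03 and 6.18 in RT. The RS group was wide and the RT group narrow: 5 of 6 RS mice were above every RT mouse, and RS-2, at 5.91, was below all of them. RS had a mean of 6.53 ± 0.43 (SD, n = 6) and RT one of 6.04 ± 0.08 (SD, n = 6), and the log2 signal fell by 0.49 with an SE of 0.15 and a 95% interval from −0.81 to −0.17, or 0.713-fold (limma, adjusted p = 0.0413; exact permutation test, two-sided, p = 0.0216). In its decile of signal 8.84% of transcript clusters were called lower, and a separation with every RT mouse below every RS mouse, which Pfkfb2 did not have, was seen in 3.10% of all transcript clusters.

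The call on Pfkfb2 rested in part on the arrays that stood apart. RS-6 held the highest value, 7.19, followed by RS-4 at 6.67 and RS-5 at 6.66. The log2 change was −0.36 without RS-6 alone (limma, adjusted p = 0.0719) and −0.46 without RS-4 alone (limma, adjusted p = 0.0833), both called. Without both RS-4 and RS-6 it was −0.29 (limma, adjusted p = 0.163), and with the array standard deviation as a covariate −0.27 (limma, adjusted p = 0.413), neither called. By the one-way test that the study's methods name, the adjusted p was 0.103. In all 22 alternatives run for Pfkfb2 the change was below 0, and 19 of them called it.

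**Figure D3:**
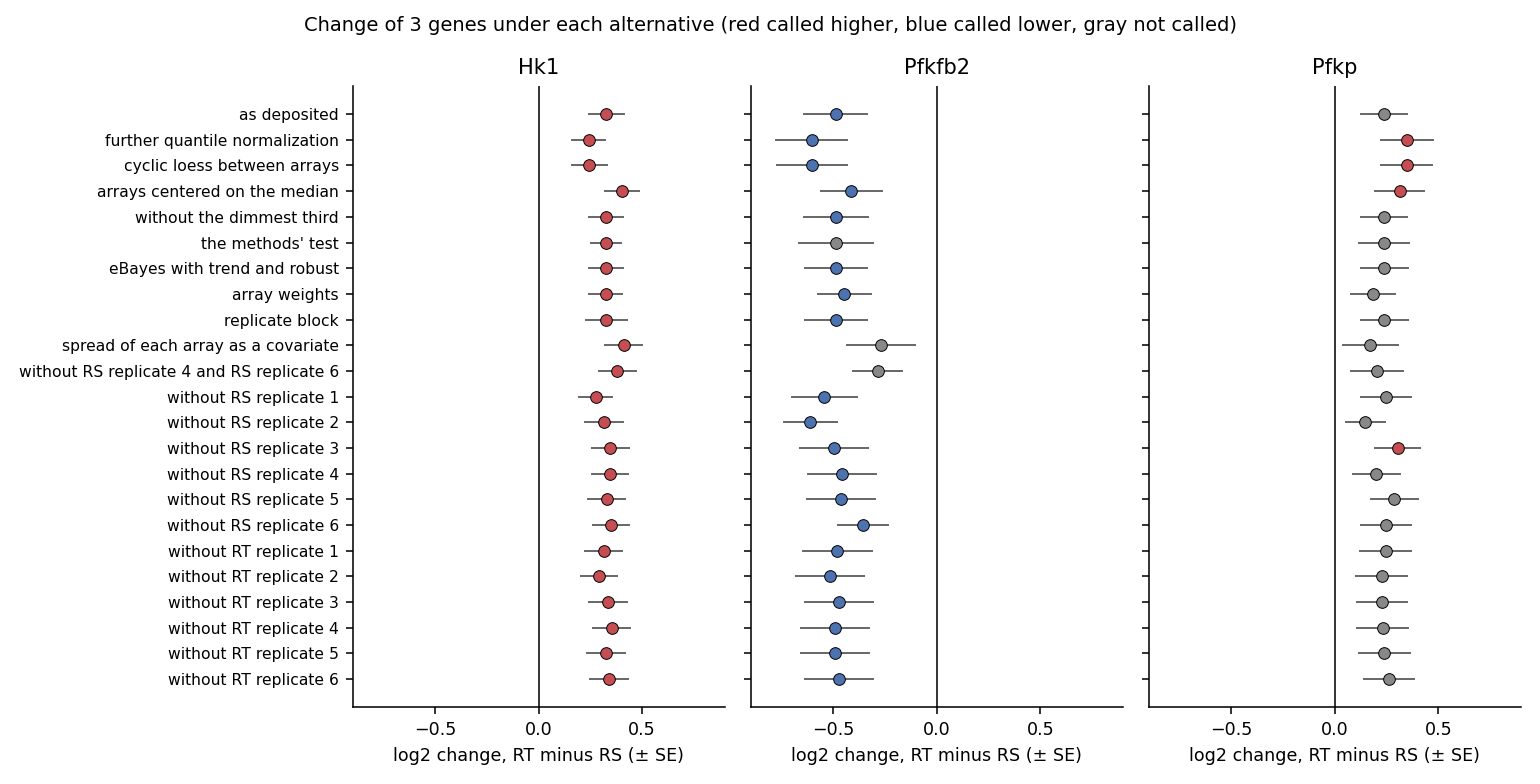
Log2 change of RT minus RS with its SE for Hk1, Pfkfb2 and Pfkp under the deposited normalization and each alternative (rows), colored by the call. Hk1 is called higher in every row drawn, Pfkfb2 loses its call in 3 rows, and Pfkp is called in 4 rows. The mean of both Hk1 transcript clusters and the brighter one alone, neither called, are not drawn.

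Pfkfb3, the inducible isoform with strong kinase activity, had a lowest, median and highest log2 signal of 8.54, 9.37 and 9.66 in RS and of 8.81, 9.22 and 9.76 in RT. Both groups spread over about the same range, with a standard deviation within groups of 0.43, above 96.5% of transcript clusters in its decile. The log2 change was 0.045 with a 95% interval from −0.38 to 0.47 (limma, adjusted p = 0.897). Pfkfb4, the testis isoform that is also induced by low oxygen, lay between 5.62 and 6.18 in RS, with a median of 5.71, and between 5.51 and 5.83 in RT, with a median of 5.63. Its log2 change was −0.13 with a 95% interval from −0.35 to 0.09 (limma, adjusted p = 0.386). The difference of Pfkfb3 minus Pfkfb4 within an array changed by 0.18 (SE 0.22; exact permutation test, p = 0.424, adjusted over 5 pairs p = 0.707). The planned pair of Pfkfb2 and Pfkfb1 was not analysed here.

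**Figure D4:**
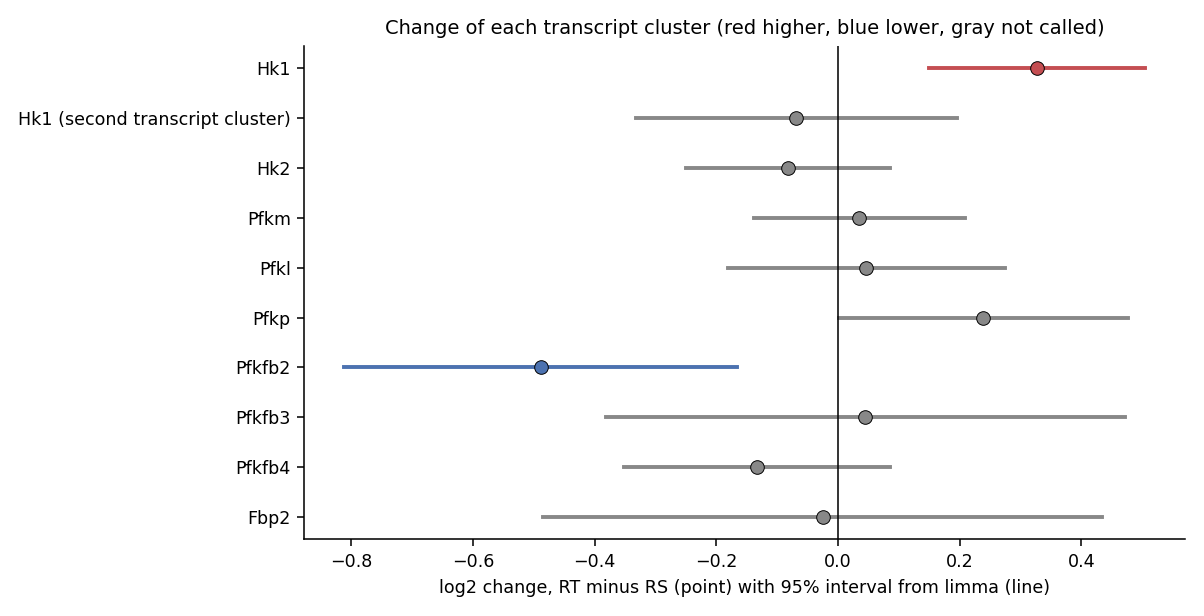
Log2 change of RT minus RS (point) with its 95% interval from limma (line) for the 10 transcript clusters. The intervals of Hk1 and Pfkfb2 lie clear of 0 on opposite sides, that of Pfkp touches 0, and those of Pfkfb3 and Fbp2 are wide.

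Genes whose signal varied most like that of the called members within groups were read off the 12 arrays after removal of the group means, as a description. For Hk1 these were Slc36a1 (r = 0.918), Bend7 (r = 0.913), Hmcn1 (r = 0.909), Opn1sw (r = 0.905) and Lrrk1 (r = 0.884). Of these, Opn1sw was called lower (log2 change −0.36; limma, adjusted p = 0.0158), the direction opposite to Hk1, and the other 4 were not called. For Pfkfb2 they were Lncpint (r = 0.980), Vegfa (r = 0.963), Notch4 (r = 0.955), Smg1 (r = 0.947) and Clk4 (r = 0.947). Vegfa, the vascular growth factor, was called lower as Pfkfb2 was (log2 change −0.36; limma, adjusted p = 0.0943), and the others of this list were not called.

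Of 59 other genes of the pathway, 52 were measured, and 12 were called higher, 1 lower and 39 neither. Over the whole array, 11.9% were called higher and 13.0% lower. The share depended on signal: it was 22.2% higher and 7.91% lower in the brightest decile, and 5.6% higher and 24.0% lower in the decile of Pfkp. The listed genes had mean log2 signals from 2.26 to 12.6, so that no single decile matches them. In glucose transport 2 of 5 were called higher. Slc2a1, the GLUT1 transporter of most cell types, had a lowest, median and highest log2 signal of 5.53, 5.70 and 5.84 in RS and of 5.91, 6.03 and 6.27 in RT. The groups did not overlap, and the log2 change was 0.38 (SE 0.08; limma, adjusted p = 0.00880). Slc2a4, the insulin-responsive GLUT4 of muscle, lay between 8.56 and 9.41 in RS and between 9.25 and 9.42 in RT, with a log2 change of 0.32 (SE 0.11; limma, adjusted p = 0.0662). It was called in 9 of 18 alternatives, and its change was 0.16 without RS-4 and RS-6 and 0.10 with the array standard deviation as a covariate, neither called.

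Of 6 other hexokinases and glucose phosphatases measured, G6pc3, a widely expressed glucose 6-phosphatase, was called higher (log2 change 0.37; limma, adjusted p = 0.0659) and Hkdc1, a hexokinase domain protein encoded next to Hk1, lower (−0.29; limma, adjusted p = 0.0752). Without RS-4 and RS-6 their changes were 0.23 and −0.21, and with the array standard deviation as a covariate 0.14 and −0.15, none of them called. The list of phosphofructokinase and fructose bisphosphatase regulation also holds Fbp1, itself a fructose bisphosphatase gene. Of its 8 measured genes, 4 were called higher and the other 4 were not called. The 3 with the largest changes were Prkaa2 and Prkaa1, the catalytic subunits of AMPK, and Prkacb, a catalytic subunit of protein kinase A, with log2 changes of 0.43, 0.38 and 0.26 (limma, adjusted p = 0.0432, 0.0703 and 0.0533). Without RS-4 and RS-6 these changes were 0.27, 0.17 and 0.21, and with the array standard deviation as a covariate 0.18, 0.09 and 0.18, none of them called. Of 18 alternatives, Prkaa2 was called in 16, Prkaa1 in 8 and Prkacb in 11. In lower glycolysis 1 of 14 was called higher, Bpgm, which makes 2,3-bisphosphoglycerate (log2 change 0.39; limma, adjusted p = 0.0761), and the other 13 were not called. The change of Bpgm was 0.26 without RS-4 and RS-6 and 0.22 with the array standard deviation as a covariate, neither called. Pkm, the pyruvate kinase of muscle, gave 0.025 at the brighter of its 2 transcript clusters (limma, adjusted p = 0.875) and was not called. Ldha, the muscle lactate dehydrogenase subunit, gave 0.24 (limma, adjusted p = 0.101) and was not called. Gapdh was not analysed here.

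Of 19 transcription factors of glycolytic genes and their partners, 4 were called higher and the other 15 were not called. Vhl, the ubiquitin ligase subunit that marks hypoxia-inducible factors for breakdown, lay between 4.27 and 4.47 in RS and between 4.52 and 5.12 in RT, without overlap, a log2 change of 0.42 (SE 0.10; limma, adjusted p = 0.0111). Srebf1, a lipogenic factor that also acts on Hk2, and Hif1a, the hypoxia-inducible factor, had log2 changes of 0.40 and 0.35 (limma, adjusted p = 0.0818 and 0.0999). They were called in 7 and 4 of 18 alternatives, and their changes were 0.30 and 0.13 without RS-4 and RS-6 and 0.26 and 0.06 with the array standard deviation as a covariate. The calls in these lists depended on the arrays. Without RS-4 and RS-6, and with the spread covariate, 2 of the 12 higher calls were left in each, Slc2a1 and Vhl. Slc2a1 and Vhl were also called in all 18 alternatives run for them. Of all transcript clusters, 5.70% were called higher without RS-4 and RS-6 and 2.53% with the spread covariate. After centering on array medians, which raised the median change of all transcript clusters to 0.06, 24 were called higher and 0 lower. Of all 28944 transcript clusters, 5883 were then called higher and 2414 lower.

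**Figure D5:**
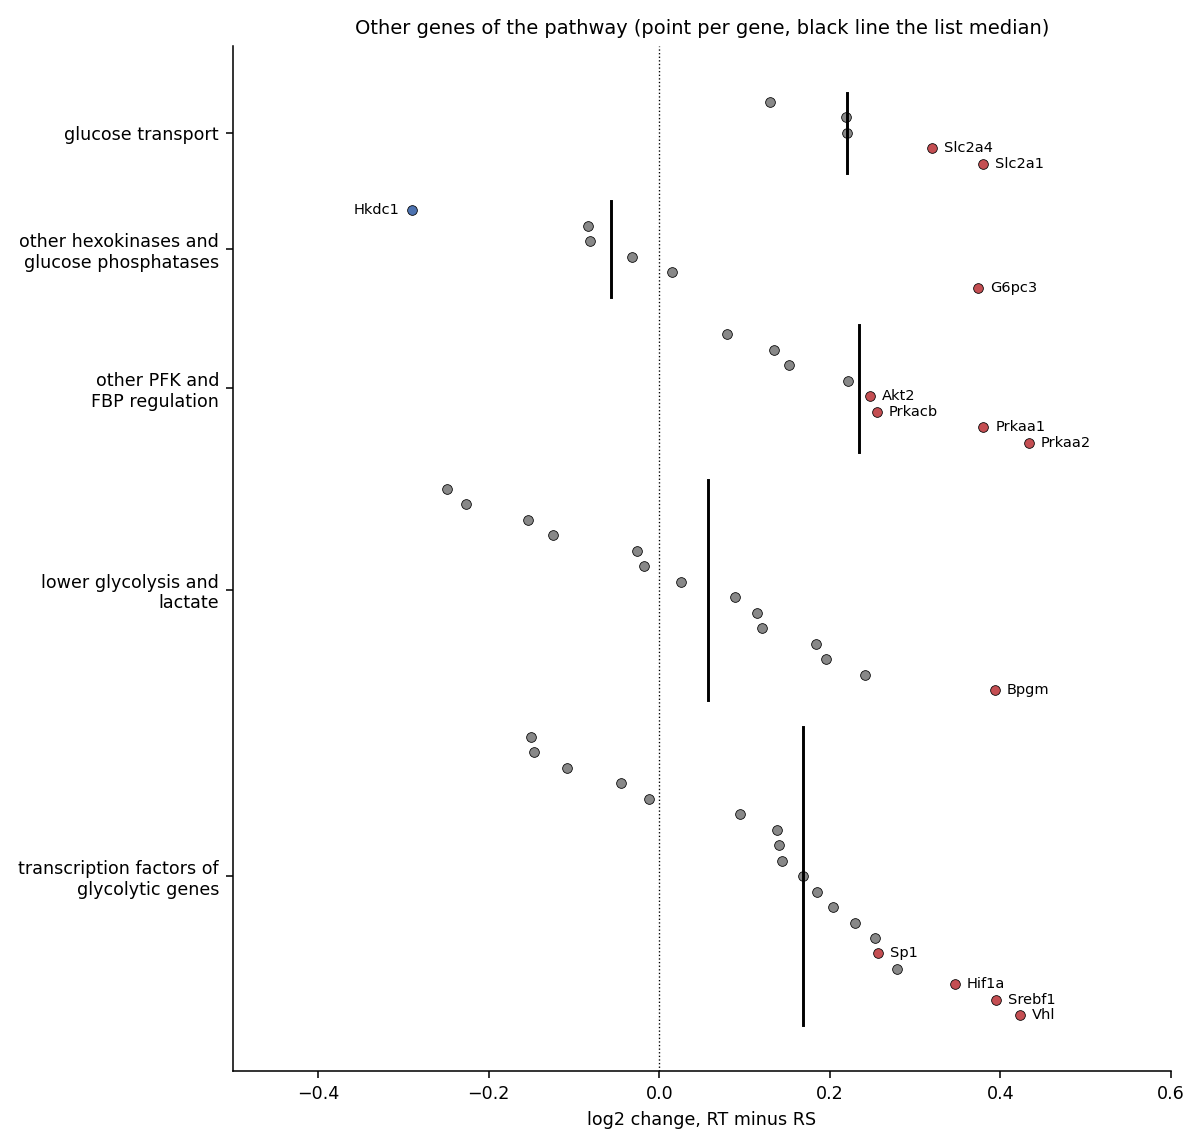
Log2 change of RT minus RS for the 52 other genes of the pathway, by list, with red for called higher, blue for called lower and gray for not called; the black line is the median of each list. Called genes are named. All points of glucose transport and of the phosphofructokinase and fructose bisphosphatase list and most of the transcription factors lie above 0. Lower glycolysis is spread on both sides.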

How the data were processed

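Total RNA of gastrocnemius muscle, 250 ng per mouse by the labels, was hybridized to Affymetrix Mouse Gene 1.0 ST arrays, 1 per mouse. The deposited matrix gives log2 signals after normalization by RMA by the authors; the methods name RMA in one paragraph and SST-RMA in another, and no genome build is given in the sources used here. The matrix held 0 columns of other samples. Precision is limited by how many arrays there are. Of 28944 transcript clusters, 21789 carried 1 symbol, 1621 several and 5534 none.

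RT and RS were compared by lmFit and eBayes of limma 3.58.1 (R 4.3.3), two-sided, without covariates, over all transcript clusters; the call takes the p and adjusted p thresholds of the study's methods. Single values were also compared by exact permutation over all splits of 6 against 6, whose smallest p is 0.00216. The members and gene lists were chosen with earlier results of these data known. Named were every member, up to 3 called genes per list and direction with the largest change, Slc2a4, Gapdh, Pkm, Ldha and Hif1a, and for each called member the 5 genes most correlated with it. A gene with several transcript clusters was to be represented by the brightest. For Hk1 that one shares its annotation with Rpl17, so both are given and counts of members are over transcript clusters. This choice was made after seeing the annotation and values. Among the other genes of the pathway, Akt2, Pkm and Ldhb had 2 transcript clusters, and Pgk1 and Pgam1 had 3. Each of these genes stands by its brightest alone, and its other transcript clusters are not given. Promoter sequences come from RefSeq tables (GRCm38.p6). Alternatives were other normalizations, filters, tests, covariates and left-out arrays.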

Additional observations from a re-analysis of the deposited data

How the results depend on the processing

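Among members, the count called higher was 1 and became 2, with Pfkp, after further quantile normalization, cyclic loess and centering on array medians, and ranged from 1 to 2 when single arrays were left out, with 2 only without RS-3. It was 0 with Hk1 represented by its brighter transcript cluster, as the rule set beforehand asked, or by the mean of both. Keeping both Hk1 transcript clusters, and the RefSeq-annotated one for the pair, was chosen after seeing the annotation and values. With the brighter one, the change of Hk2 minus Hk1 within an array was −0.0133 (exact permutation test, adjusted p = 0.946) in place of −0.41. The count called lower was 1 and became 0 by the methods' test and without RS-4 and RS-6. It stayed at 1 with the array standard deviation as a covariate, where the second Hk1 transcript cluster was called (−0.33, limma, adjusted p = 0.0900) and Pfkfb2 was not. Hk1 was called in 22 of 23 alternatives (log2 change 0.13 to 0.41) and Pfkfb2 in 19 of 22 (−0.61 to −0.27). The 23 leave out the brighter Hk1 transcript cluster alone, which was not called (−0.07, limma, adjusted p = 0.734). Of members not called, the sign of the change turned in 4 of 22 alternatives for Pfkm, 6 of 22 for Pfkfb3 and 6 of 22 for Fbp2, and in 0 of 22 for Hk2, Pfkl, Pfkp and Pfkfb4; for the second Hk1 transcript cluster it was above 0 in 2 of 23, one of which is the mean of both.

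Other genes of the pathway called higher numbered 12 and became 7 after quantile normalization, 3 after cyclic loess, 24 after centering, 2 with the spread covariate, 2 without RS-4 and RS-6 and 4 at an adjusted p under 0.05, with 4 (without RS-5 or without RS-6) to 19 (without RS-1) when single arrays were left out. The other single arrays left 6 (without RS-4, RT-3 or RT-6), 7 (RT-2 or RT-4), 8 (RT-1), 12 (RS-3 or RT-5) and 14 (RS-2). Without the dimmest 33.3% of transcript clusters, an alternative not planned for this count, 16 were called higher. The 1 called lower became 0 after centering, with the spread covariate, without RS-4 and RS-6 and at an adjusted p under 0.05, and ranged from 0 to 2 when single arrays were left out. Over all 28944 transcript clusters, 3445 were called higher as deposited. This whole-array number was 2785 after quantile normalization, 2770 after cyclic loess and 5883 after centering. It was 732 with the spread covariate, 1649 without RS-4 and RS-6 and 2092 at an adjusted p under 0.05 (limma). Centering raised the share of higher among all calls from 47.8% to 70.9%. The causes were not tested.

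No pairing of mice by replicate number was seen. Correlations of same-numbered RS and RT arrays after removal of group means lay between −0.24 and 0.107, and 0 of 6 were closest to their own number. These few correlations cannot show that the numbers carry no pairing. With a replicate block, 1 member was called higher and 1 lower, Hk1 (adjusted p = 0.0520) and Pfkfb2 (adjusted p = 0.0521).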

Other observations

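Pfkfb3 and Fbp2 had the widest spread within groups of the members, and the genes most like them over the 12 arrays were looked up after their values were seen, as a description. For Pfkfb3 these were Chac1 (r = 0.902), a glutathione-degrading enzyme of the stress response, Cdh4 (r = 0.888), Ccl25 (r = 0.882), Ift57 (r = 0.873) and Olfr305 (r = 0.868). For Fbp2 they were 0610039K10Rik (r = 0.922), Tirap (r = 0.922), Etf1 (r = 0.917), Setdb2 (r = 0.900) and Rpl27 (r = 0.893). None of these 10 was called between RT and RS by limma.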
